A study of Mus musculus with 2 samples.

Results

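The miR-17-92 and miR-106b-25 clusters are paralogous groups of miRNA genes, each made from a single primary transcript, and their products share a small number of seeds. Members were chosen by symbol, by matching the Ensembl identifiers of the deposited rows to GENCODE M21. This gave 9 genes of 2202: Mir17, Mir18, Mir19a, Mir20a, Mir19b-1 and Mir92-1 in the first cluster, and Mir106b, Mir93 and Mir25 in the second. MicroRNA-seq, the sequencing of short RNAs selected by size (labelled size range below 30), was run on gastrocnemius, a calf muscle. The 2 libraries, replicate 1 and replicate 2, come from male mice of strain B6CASTF1/J, an F1 hybrid of C57BL/6J and the wild-derived CAST/EiJ strain, at 25 days of age. They form 1 group with no treatment, no mutation and no second condition, so the data give levels and the difference between the libraries only. The labels name different animals yet carry a single donor identifier, and SDs and p-values may therefore measure technical spread alone.

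A miRNA guides the Argonaute protein to messenger RNAs that pair with its seed, bases 2 to 8 counted from the 5′ end, and lowers their output. The miR-17-92 transcript, Mir17hg, is driven by MYC and E2F factors and is known for promoting proliferation and survival in B cells and in the developing lung and heart. The miR-106b-25 cluster lies inside Mcm7, which encodes a subunit of the replicative helicase, and is transcribed with it in dividing cells. Known targets include the cell cycle inhibitor Cdkn1a for the miR-17 seed and the pro-apoptotic gene Bcl2l11 for the miR-92 seed.

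Mature sequences show which members could stand in for each other, and are given from RefSeq (GRCm38.p6), with the seed in capitals. All 9 members were matched in that table, and for each the arm usually taken as the guide strand is shown. The deposited counts are per gene and do not separate the arms. The miR-17 seed group holds 4 members, from both clusters.
Mir17 (miR-17-5p): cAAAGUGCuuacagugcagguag
Mir20a (miR-20a-5p): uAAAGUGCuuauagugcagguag
Mir93 (miR-93-5p): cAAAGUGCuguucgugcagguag
Mir106b (miR-106b-5p): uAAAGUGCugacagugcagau

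The miR-18 seed differs from it and has 1 member. The miR-19 seed has 2 members, both in miR-17-92, and the miR-92 seed has 1 member in each cluster.
Mir18 (miR-18a-5p): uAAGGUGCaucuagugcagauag
Mir19a (miR-19a-3p): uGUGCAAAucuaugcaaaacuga
Mir19b-1 (miR-19b-3p): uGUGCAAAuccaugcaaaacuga
Mir92-1 (miR-92a-3p): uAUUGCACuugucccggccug
Mir25 (miR-25-3p): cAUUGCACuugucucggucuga

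For 2 members, another annotated miRNA gene holds an exact copy of this mature sequence. The copies matter because a read placed at more than 1 locus was not assigned to any gene. Such reads were 69.8% of the total in replicate 1 and 71.8% in replicate 2. The mature sequence of Mir19b-1 is also that of Mir19b-2, and that of Mir92-1 is also that of Mir92-2, both in an X-linked cluster, miR-106a-363. The hairpins of Mir19b-1 and Mir19b-2 share an unbroken stretch of 25 bases, and those of Mir92-1 and Mir92-2 one of 22 bases, against mature lengths of 23 and 21. The other 7 members share no stretch of 20 bases with any annotated miRNA gene on either strand, and their mature sequences have no exact copy in one. Counted from the 5′ end, miR-19a differs from miR-19b by U11C and miR-17 from miR-106a of miR-106a-363 by U10A. For Mir18 and Mir20a the nearest sequence in another miRNA gene is 2 mismatches away, and for Mir106b, Mir93 and Mir25 it is 3. Among 141767 annotated transcripts, exact copies lay only in these miRNA genes and in transcripts of the hosts Mir17hg and Mcm7. The rest of the genome was not searched. The sources used here do not say how many mismatches the authors' alignment allowed.

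The miR-17-92 hairpins span 836 bases on the plus strand of chromosome 14 (mm10, chr14:115043671-115044506). All 6 lie in exon 2 of the 2-exon transcript of Mir17hg, a long non-coding RNA gene, in the order Mir17, Mir18, Mir19a, Mir20a, Mir19b-1 and Mir92-1. Gaps between neighbouring hairpins run from 35 to 96 bases. The miR-106b-25 hairpins span 498 bases on the minus strand of chromosome 5 (chr5:138165321-138165818), in the order Mir106b, Mir93 and Mir25, with gaps of 126 and 118 bases. They lie in intron 13 of the Mcm7 transcript that covers the whole gene. A shorter annotated Mcm7 transcript holds Mir93 and Mir25, but not Mir106b, in its first exon. Neither host gene has a row among the miRNA gene counts, so host transcript levels were not analysed here.

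**Figure D1:**
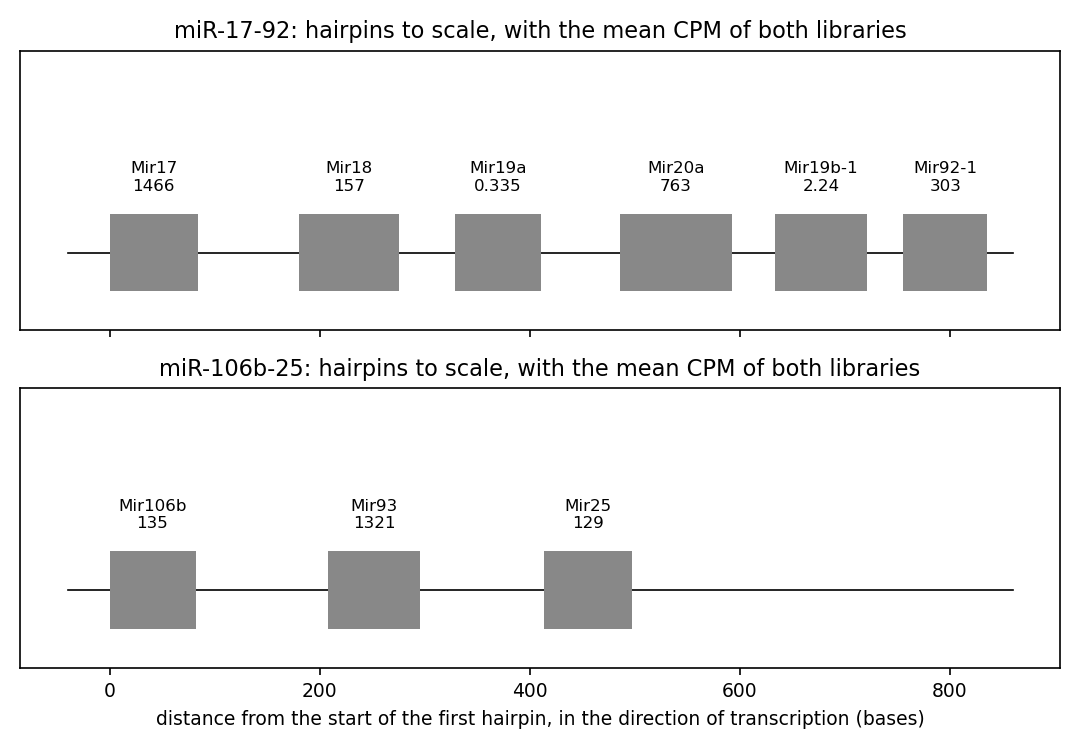
Hairpins of miR-17-92 and miR-106b-25 drawn to scale along the direction of transcription, by distance from the first hairpin in bases, each with its mean CPM over both libraries. Mir17 at 1466 and Mir93 at 1321 CPM lead their clusters, and Mir19a and Mir19b-1 lie between well-counted hairpins at 0.335 and 2.24 CPM.

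Both clusters were present at a modest level among the gene counts, which hold only reads placed at 1 locus. Values are counts per 1000000 gene counts (CPM), on totals of 1491341 gene counts in replicate 1 and 2028332 in replicate 2. Gene counts took up 19.9% of the reads for replicate 1 and 20.6% for replicate 2. Most other reads were placed at several loci, so the totals may lack much miRNA made from duplicated genes. The shares, levels and ranks given here are relative to the gene counts and are not shares of all miRNA in the muscle. Mature miRNAs are of nearly equal length, and levels per 100 hairpin bases are given with the order of the genes. The miR-17-92 genes had 3802 counts in replicate 1 and 5747 in replicate 2, or 0.255% (exact 95% Clopper-Pearson interval 0.247 to 0.263) and 0.283% (0.276 to 0.291) of gene counts. The miR-106b-25 genes had 2412 and 3151 counts, or 0.162% (0.155 to 0.168) and 0.155% (0.150 to 0.161). The 2 clusters together came to 0.428 ± 0.0156% (SD, n = 2). The first cluster exceeded the second by 1.58-fold in replicate 1 and 1.82-fold in replicate 2. PCR copies are not independent molecules, and the intervals include counting error alone. In whole tissue, fewer cells of a type and less RNA per cell cannot be told apart.

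Within miR-17-92 the genes differed widely, with Mir17 first in both libraries. Mir17 had 2144 counts in replicate 1 and 3032 in replicate 2, which is 1438 and 1495 CPM. Its mean of 1466 ± 40.4 CPM (SD, n = 2) placed it 53rd among the 2202 genes by reads placed at 1 locus. Mir17 shares its seed with Mir20a, which differs from it in the mature sequence by C1U and C12U. Mir20a followed with 1020 and 1706 counts, or 684 and 841 CPM. Counts of Mir17 were 2.10 times those of Mir20a in replicate 1 (exact 95% interval 1.95 to 2.27) and 1.78 times in replicate 2 (1.67 to 1.89). Mir92-1, whose miR-92a is known in mouse endothelium as a brake on vessel growth, had 445 and 625 counts, or 298 and 308 CPM. Mir18 was lower again, with 189 and 379 counts, or 127 and 187 CPM. All 4 of these genes were clearly detected, with no overlap between the libraries of one gene and those of the next in this order.

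The miR-19 genes of the same transcript were close to zero. Mir19a had 1 count in replicate 1 and 0 in replicate 2, where the floor of 3 counts set for a count of 0 is 1.48 CPM. Mir19b-1 had 3 and 5 counts, or 2.01 and 2.47 CPM. Neither reached the minimum of 10 summed counts used for testing. Counts of Mir17 were 715 times those of Mir19b-1 in replicate 1 (exact 95% interval 244 to 3468) and 606 times in replicate 2 (260 to 1869). Against Mir19a the ratio was 2144 in replicate 1 (384 to 84722). In replicate 2 it was 1011 with Mir19a set at the floor of 3 counts, and the lower exact 95% limit was 821. Mir19b-1 has its exact copy on the X chromosome, and Mir19b-2 there had 0 counts in both libraries. Mir19a has no exact copy in an annotated miRNA gene. Mir92-1, whose mature sequence is also duplicated on the X chromosome, had 148 times the counts of Mir19b-1 in replicate 1 (50.4 to 722) and 125 times in replicate 2 (53.3 to 386). Whether miR-19 reads were among those placed at several loci was not tested.

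Hairpins of the highest and the lowest gene of the transcript are shown whole (RefSeq, GRCm38.p6, plus strand of chromosome 14), with mature arms listed in RefSeq in capitals. Mir17 has both arms in that table and Mir19a 1 arm, and the hairpins are 84 and 82 bases long.
Mir17 (chr14:115043671-115043754): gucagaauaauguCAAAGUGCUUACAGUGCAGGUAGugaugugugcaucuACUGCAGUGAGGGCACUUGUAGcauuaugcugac
Mir19a (chr14:115044000-115044081): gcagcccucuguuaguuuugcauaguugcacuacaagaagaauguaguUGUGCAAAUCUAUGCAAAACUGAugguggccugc

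In miR-106b-25 the middle gene dominated. Mir93 had 2014 counts in replicate 1 and 2621 in replicate 2, or 1350 and 1292 CPM. By reads placed at 1 locus, Mir93 ranked 55th among all genes. It exceeded Mir106b by 9.92-fold in replicate 1 (exact 95% interval 8.58 to 11.5) and 9.71-fold in replicate 2 (8.56 to 11.0). Mir106b, which carries the same seed as Mir93, had 203 and 270 counts, or 136 and 133 CPM. Mir25, which carries the miR-92 seed and is known to target the calcium pump gene Atp2a2 in mouse heart, had 195 and 260 counts, or 131 and 128 CPM. These outer genes were nearly level, Mir106b standing at 1.04 times Mir25 in both libraries, with intervals of 0.851 to 1.27 and 0.873 to 1.24.

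The make-up of miR-106b-25 was nearly the same in the 2 libraries, while that of miR-17-92 shifted a little. Mir93 made up 83.5% of the counts of its cluster in replicate 1 and 83.2% in replicate 2. Mir17 made up 56.4% (54.8 to 58.0) of its cluster in replicate 1 and 52.8% (51.5 to 54.1) in replicate 2. Those intervals do not overlap. Mir20a held 26.8% and 29.7%, and Mir18 4.97% and 6.59%, again with intervals that do not overlap. Mir92-1 held 11.7% and 10.9% with overlapping intervals. These shares do not depend on how the libraries are scaled to each other.

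**Figure D2:**
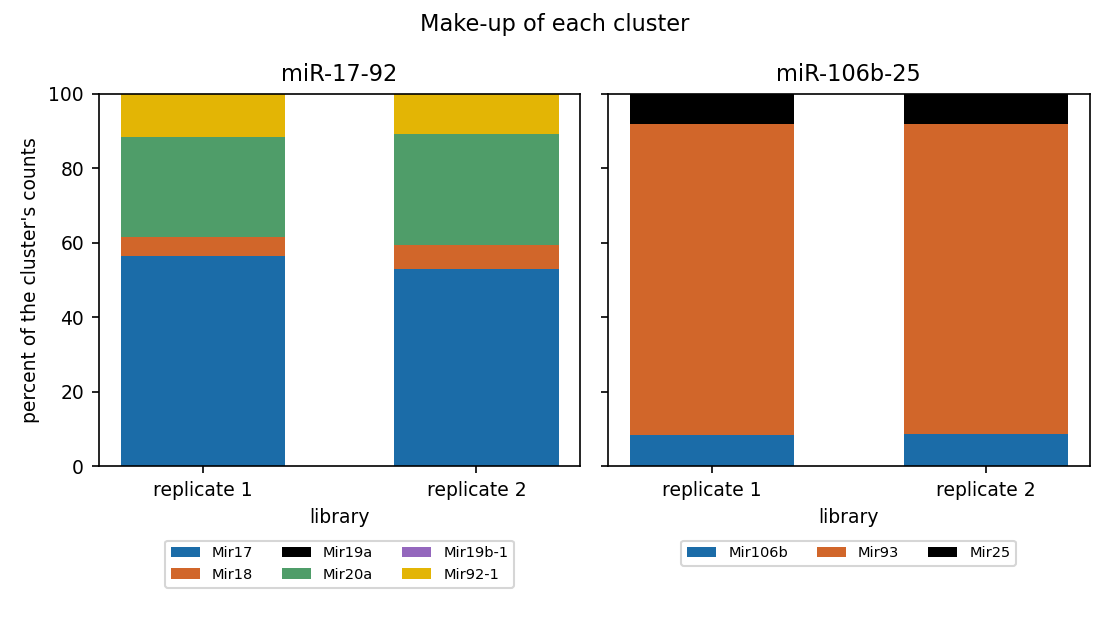
Percent of each cluster's counts held by each member, as stacked bars for replicate 1 and replicate 2. Mir93 holds over 83% of miR-106b-25 in both bars, and Mir17 holds 56.4% and 52.8% of miR-17-92, while Mir19a and Mir19b-1 are too low to be seen.

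Ordered over both clusters by mean CPM, the members ran Mir17, Mir93, Mir20a, Mir92-1, Mir18, Mir106b, Mir25, Mir19b-1 and Mir19a. The libraries of Mir18, at 127 and 187 CPM, spanned those of Mir106b and of Mir25, so these 3 genes are not ordered beyond the spread of Mir18. All other neighbours were apart in both libraries, although Mir106b and Mir25 differed by less than their counting intervals, as did Mir19b-1 and Mir19a. Per 100 hairpin bases, Mir17 had a mean level of 1746 CPM, Mir93 1502 CPM, Mir20a 713 CPM, Mir92-1 379 CPM and Mir25 154 CPM. On that scale Mir18 and Mir106b came to 163 and 164 CPM, which turns their order round. Between the leading genes of the clusters, Mir17 had 1.06 times the counts of Mir93 in replicate 1 (1.00 to 1.13) and 1.16 times in replicate 2 (1.10 to 1.22). Between the miR-92 seed members, Mir92-1 had 2.28 times the counts of Mir25 in replicate 1 (1.92 to 2.71) and 2.40 times in replicate 2 (2.08 to 2.79). These ratios, the place of Mir92-1 in the order and the miR-92 seed sum rest only on reads placed at 1 locus. Reads that match the copy shared with Mir92-2 equally well may be missing from Mir92-1, whereas Mir25 has no such copy among annotated miRNA genes. Genes outside the clusters nearest to Mir17 in log2(CPM + 1) over the 2 libraries were Mir532 (1446 and 1505 CPM), Mir196a-2 (1524 and 1306 CPM) and Mir652 (1327 and 1293 CPM). Those nearest to Mir93 were Mir652, Mir433 (1283 and 1288 CPM) and Mir196a-2. With 2 libraries this likeness is one of level only.

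Summed by seed, the 2 clusters supplied nearly all counts that carry the miR-17 seed. RefSeq lists 7 genes with that seed (AAAGUGC), and together they had 5392 counts in replicate 1 and 7658 in replicate 2, a level of 3696 ± 113 CPM (SD, n = 2). The 4 members held 99.8% and 99.6% of these counts. Of 7 genes with the miR-92 seed (AUUGCAC), Mir92-1 and Mir25 held 90.8% of 705 counts in replicate 1 and 87.0% of 1017 counts in replicate 2. The others were led by Mir32, with 37 and 63 counts, and Mir92b, with 15 and 42 counts. The miR-92 seed group came to 487 ± 20.3 CPM. The miR-18 seed (AAGGUGC) came from Mir18 alone, at 157 ± 42.5 CPM, as Mir18b had no counts. The miR-19 seed (GUGCAAA), with 3 genes, had 4 counts in replicate 1 and 5 in replicate 2. These sums treat every read of a gene as the arm that carries the seed.

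**Figure D3:**
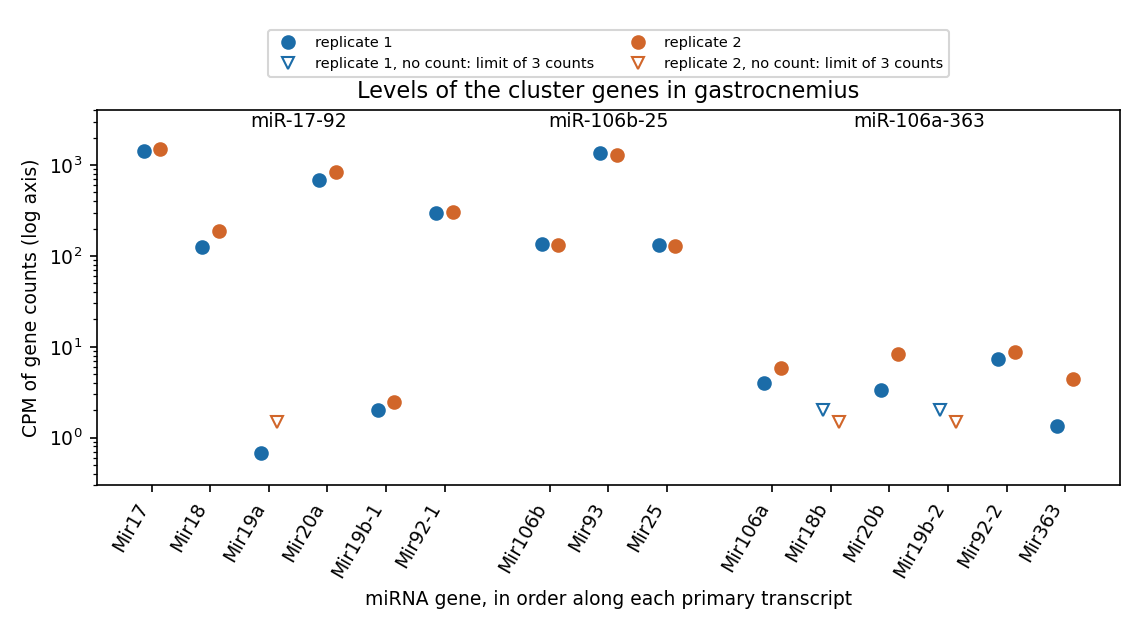
CPM on a log axis of each gene of miR-17-92, miR-106b-25 and the X-linked miR-106a-363 cluster in replicate 1 and replicate 2; open triangles mark libraries with no count, at the limit of 3 counts. Mir17, Mir20a and Mir93 are at 684 CPM or more in both libraries, whereas no gene of miR-106a-363 exceeds 8.87 CPM.

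The X-linked paralogue, miR-106a-363, was near the floor in reads placed at 1 locus. Its 6 genes lie on the minus strand within chrX:52741693-52742567. They had 24 counts in all in replicate 1 and 56 in replicate 2, or 16.1 and 27.6 CPM, against 4167 and 4387 CPM for the 2 clusters described here. Gene by gene, Mir17 had 357 times the counts of Mir106a in replicate 1 (164 to 975) and 253 times in replicate 2 (144 to 490). The mature sequences of this pair differ by 1 base. Mir20a had 204 times the counts of Mir20b in replicate 1 (87.1 to 630) and 100 times in replicate 2 (62.5 to 173). Mir92-1 had 40.5 times the counts of Mir92-2 in replicate 1 (22.4 to 81.6) and 34.7 times in replicate 2 (21.8 to 59.0). This pair has identical mature sequences, as have Mir19b-1 and Mir19b-2. Reads that match both copies equally well may be missing from both genes of a pair. The ratio therefore does not show which locus makes miR-92a. Mir18 was at least 63.0-fold higher than Mir18b in replicate 1 and at least 126-fold higher in replicate 2, taking a floor of 3 counts per library. Mir363, the last gene of the X-linked cluster, had 2 and 9 counts.

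Between the libraries, 2 of the 7 members that could be tested differed, both lower in replicate 1, and none was higher there. Over all genes, 120 of 313 tested passed, which is 38.3%, with 18.5% higher and 19.8% lower in replicate 1 (exact two-sided binomial test on counts scaled by TMM, Benjamini-Hochberg adjustment). The members' share is thus near that of all genes. Mir18, at 189 counts in replicate 1 and 379 in replicate 2, had a log2 ratio of replicate 1 over replicate 2 of -0.57, with an exact 95% interval of -0.83 to -0.31 (adjusted p = 2.69e-05, binomial test). Mir20a, at 1020 and 1706 counts, had -0.31, with an interval of -0.42 to -0.20 (adjusted p = 2.51e-07, binomial test). The other members of the transcript did not pass: Mir17 had -0.07 (-0.15 to 0.01) and Mir92-1 -0.06 (-0.24 to 0.12). The miR-106b-25 genes did not pass either, with log2 ratios of 0.05 for Mir93 (-0.03 to 0.14), 0.02 for Mir106b (-0.25 to 0.29) and 0.02 for Mir25 (-0.26 to 0.29). The median log2 ratio was -0.19 over the 4 tested miR-17-92 genes and 0.02 over the 3 miR-106b-25 genes, beside -0.05 over all tested genes. The binomial test takes in counting error alone and says nothing of a condition. With a spread between libraries added, estimated from the same 2 libraries as a biological coefficient of variation of 18.0%, the edgeR exact negative binomial test called 0 of 313 genes, with 15 below 0.05 before adjustment. Neither Mir18 nor Mir20a passed it. The differences under test also set that spread, so this test could call few genes. Its result does not show that the libraries were alike.

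**Figure D4:**
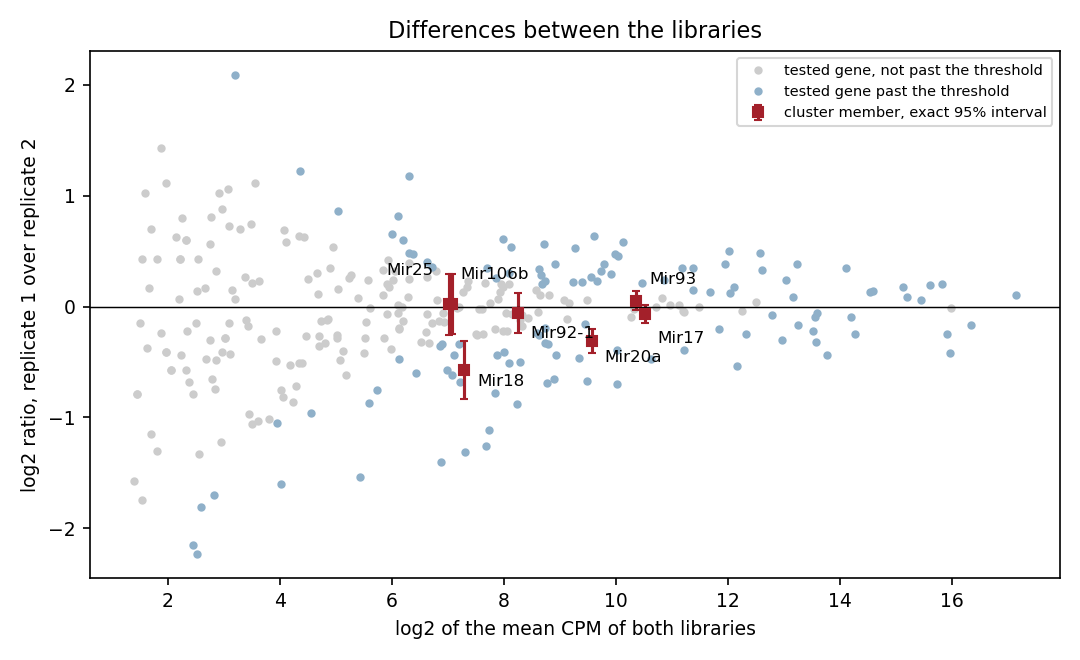
Log2 ratio of replicate 1 over replicate 2 against log2 mean CPM for the 313 tested genes, with the 7 tested cluster members as squares with exact 95% intervals. Mir18 at -0.57 and Mir20a at -0.31 lie below 0, and the intervals of the other 5 members include 0.

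Markers of other cell types in the muscle also differed between the libraries by the binomial test, beside 38.3% of all tested genes. Because that test takes in counting error alone, genes with many counts pass at small differences. Mir126a, at 116735 counts in replicate 1 and 177529 in replicate 2, passed at a log2 ratio of -0.17. None of these markers passed the edgeR exact negative binomial test. Its spread came from the differences under test, so it could call few genes. Of 5 leukocyte miRNAs, Mir150, Mir155 and Mir342 were higher in replicate 1 and Mir142 and Mir223 were lower, and their summed level was 3619 CPM in replicate 1 and 2900 CPM in replicate 2. Both red cell miRNAs, Mir451a and Mir144, were lower in replicate 1, with sums of 174 and 355 CPM. The endothelial Mir126a was lower (78275 and 87525 CPM), as were both smooth muscle and pericyte genes, Mir143 and Mir145a (58854 and 78690 CPM summed). Their part in the lower Mir18 and Mir20a was not tested. The 8 striated muscle genes summed to 55002 and 48192 CPM as counted, of which Mir206 had 53367 and 46543 CPM. Mir206 and Mir499 share no 20-base stretch on the same strand with another annotated miRNA gene, but the other 6 do, among them the Mir1a and Mir133 genes. Their share of the muscle's miRNA cannot be read from these counts. In this list, Mir206, Mir486 and Mir1a-2 were higher in replicate 1, Mir499 was lower, and 3 of 7 tested genes did not pass. Of 6 neuronal markers, 5 had no count and Mir9-3 had 1 count in each library. All 6 share a 20-base stretch with another gene of the list, so these counts do not show that neuronal miRNAs were absent. Mir137, a miRNA enriched in neurons that is in no list here, had 33 counts in replicate 1 and 130 in replicate 2, or 22.1 and 64.1 CPM.

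Other miRNAs tied to the cell cycle differed in both directions between the libraries. In the miR-15/16 family, whose members restrain cyclins, 2 of 7 tested genes were higher in replicate 1 (Mir16-1 and Mir16-2), 2 were lower (Mir15a and Mir322) and 3 did not pass, beside 18.5% higher and 19.8% lower over all tested genes. None of these 4 genes passed the edgeR exact negative binomial test, which could call few genes because its spread came from the differences under test. The hairpins of Mir16-1 and Mir16-2 share a 20-base stretch, so their counts may lack reads placed at both. Its highest genes were Mir322 at 12194 ± 1857 CPM, Mir195a at 2006 ± 17.7 CPM, Mir15a at 648 ± 143 CPM and Mir16-1 at 603 ± 67.4 CPM. Mir195a thus lay above every member of the 2 clusters. Of the miR-34 genes, which are induced by p53, 0 of 2 tested passed, and Mir34a had 183 ± 22.0 CPM and Mir34c 69.5 ± 6.30 CPM. The miR-302 and miR-290 genes are pluripotency miRNAs whose seed matches that of miR-17 shifted by a base. In reads placed at 1 locus they were near zero, and 6 of 8 had no count. Mir302a had 1 count in replicate 1 and 2 in replicate 2, and Mir302b had 0 and 1. On the same strand, 3 of the 8, Mir302a and Mir302b among them, share a 20-base stretch with another annotated miRNA gene. Counts of these 3 may lack reads placed at several loci.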

How the data were processed

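The deposited files hold raw read counts per miRNA gene, not normalized, for mm10 with GENCODE M21, per the authors' description of the files. The sources used here do not give the aligner, trimming or mismatch settings. From its larger total, the third column was taken as counts on the strand of the gene. The members had 0 counts on the opposite strand, and their counts in the column without strand were identical. Rows that name no gene stayed out of totals and tests: reads placed at several loci, unaligned reads (8.11% in replicate 1 and 5.99% in replicate 2) and reads outside genes (2.21% and 1.64%).

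All 2202 identifiers matched GENCODE M21. Each gene with at least 10 summed counts was tested with an exact binomial test (scipy 1.17.1) on TMM effective library sizes (edgeR 4.0.16, R 4.3.3), adjusted by Benjamini-Hochberg over 313 genes at 0.05. The step was checked on simulated counts that held counting error alone, so the check does not cover spread between libraries. Alternatives used DESeq2 1.42.0 size factors, other filters and columns. Fold changes of single pairs of genes have exact intervals on their counts in 1 library.

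Genes named are the members, the X-linked paralogues, other genes with their seeds, the 3 genes nearest in level to each leading member, the cell type markers, and the 4 highest genes per list. Mir16-2 and Mir137, outside that rule, were chosen after their values were seen, and Mir378a is named because it was left out of the total in an alternative. The members and lists (miR-15/16, miR-34, miR-302 and miR-290, and markers of striated muscle, leukocytes, red cells, endothelium, smooth muscle and neurons) were chosen with earlier results of these data known. Mir497a has no row under that name.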

Additional observations from a re-analysis of the deposited data

How the results depend on the processing

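Mir18 and Mir20a were lower in replicate 1 with total counts or DESeq2 size factors for scaling, with either other filter and with the column without strand, so 2 members were called each time. With no filter, these were 2 of 9 members and 110 of 570 genes were called, against 2 of 7 and 120 of 313 with the minimum of 10 counts. Over all genes, 120 of 313 were called with either other scaling. With at least 10 counts in each library 117 of 267 were called, and without strand 110 of 287. With the edgeR exact negative binomial test the count was 0 of 7 members and 0 of 313 genes. With no filter beyond 1 count in all, Mir19b-1 was also tested (binomial test adjusted p = 1.00), as was Mir19a (0.739). The share of miR-17-92 was 0.360% in the column without strand, 0.239% over members that share no 20-base stretch and 0.315% without Mir378a, a gene at 149905 CPM in replicate 1 and 139160 CPM in replicate 2, in the total. That of miR-106b-25 was 0.212% without strand and 0.185% without Mir378a. These changes follow from a smaller total or fewer genes. Single libraries gave 0.255% to 0.283% for miR-17-92 and 0.155% to 0.162% for miR-106b-25. No result reversed. A test with 1 library left out was not run, since it leaves nothing to compare. No paired analysis was possible because the series has 1 group. Depth limits Mir19a, Mir19b-1 and the X-linked genes, where 1 count is worth 0.671 CPM in replicate 1 and 0.493 CPM in replicate 2.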
